A study of Mus musculus with 4 samples.

Results

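The genes described here are 9 members of the insulin-like growth factor (IGF) system: 6 IGF-binding proteins (Igfbp2 to Igfbp7), the ligand Igf1, and the receptors Igf1r and Insr. Their rows were taken from the expression table by symbol, from a list chosen with earlier results of these data known. All 9 were found, as single rows, among 23970 gene symbols, and 8 had enough signal to be tested. The libraries came from epidermal keratinocytes of newborn mice, 2 labelled Ovol2-deficient and 2 labelled control. Cells of both groups were grown at passage 0, with no added treatment, in low-calcium medium on J2-3T3 cells, a mouse fibroblast feeder line whose division had been stopped. The feeders were taken off before RNA was extracted, and cultures were harvested short of confluence. Sample titles call the deficient libraries SSKO, a code the sources used here do not spell out. The allele, any Cre driver, the genotype of the controls and whether animals were pooled are also not given in the sources used here. Nothing says that the libraries came from separate animals or cultures, so the p-values measure only the spread between these libraries.

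Insulin-like growth factors bind the tyrosine kinase receptor Igf1r and, less tightly, the insulin receptor Insr. Both receptors signal through Irs adaptors to phosphoinositide 3-kinase and Akt. Secreted binding proteins hold the ligands in the fluid around cells and on the matrix, and proteases that cleave the binding proteins set the ligands free. In skin, dermal fibroblasts are a main source of Igf1, and keratinocytes carry the receptor. Ovol2 is a zinc-finger transcription factor of epithelia.

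Levels are in FPKM, a fragment count scaled both to the length of the transcript and to the mapped fragments of the library, so that levels of different genes can be compared. The files used here held no library totals. As a guide to the reads behind each value, the mean normalized signal over all samples in the authors' deposited table was 4821 for Igfbp2, 1592 for Igfbp3, 124 for Igfbp5, 26.1 for Igfbp6 and 4.12 for Igf1. Ovol2 itself stood at 1.45 and 0.941 FPKM in the Ovol2-deficient libraries, against 2.68 and 2.14 FPKM in the controls. Both Ovol2-deficient values lay below both controls, as for 24.0% of all tested genes, and their mean was 0.497 times the control mean. Limma did not call Ovol2 (adjusted p = 0.129), at a log2 fold change of -0.64 on log2(FPKM + 1). On that scale the added 1 shrinks the fold changes of low genes such as Ovol2. The authors' deposited table had Ovol2 at a log2 fold change of -0.36 (adjusted p = 0.441). Epidermal markers were high in every library, with Krt5 at 2484 and 2269 FPKM in the Ovol2-deficient libraries and 2960 and 2762 FPKM in the controls. Endothelial markers were low, with a summed level of 4.70 and 3.51 FPKM in the Ovol2-deficient libraries, against 3.57 and 3.88 FPKM in the controls, though Pecam1 and Kdr were high enough to be tested. Immune markers summed to 21.4 and 17.9 FPKM in the Ovol2-deficient libraries, against 18.2 and 22.7 FPKM in the controls, and none of the 2 tested markers in either list passed in limma.

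None of the 8 tested IGF genes passed the threshold (adjusted p under 0.05 in limma, on log2(FPKM + 1), over 11350 genes), where 1.35% of all genes did. Of the tested members, Igfbp3 had the largest difference on the log2(FPKM + 1) scale, at 0.577 times the control mean in the Ovol2-deficient libraries, and Igfbp4 was 34.5% above its control mean. Those 2 had an unadjusted p under 0.05, as did 17.4% of all genes. The authors' deposited table rests on the same 4 libraries and gives an adjusted p for 7 members. Taking its adjusted p under 0.05 as the threshold here too, Igfbp3 passed as lower and Igfbp4 as higher. Of its 11582 genes with an adjusted p, 4.43% passed, 2.10% lower and 2.33% higher. For single genes, an exact permutation test of 2 libraries against 2 cannot give a two-sided p below 0.333, so all p-values rest on the model's shared estimate of the spread.

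Promoter windows are shown for the 2 genes with the clearest differences, Igfbp3 and Igfbp4, picked after their values were seen. The windows run from 250 bases before to 50 bases after the annotated start (RefSeq, GRCm38.p6). The window of Igfbp3 is chr11:7213874-7214173 on the minus strand, and that of Igfbp4 is chr11:99040994-99041293 on the plus strand. Capitals mark exact matches, on either strand, to CCGTTA, a core sequence bound by Ovo-family factors, or to TATAAA, a form of the TATA box.
Igfbp3: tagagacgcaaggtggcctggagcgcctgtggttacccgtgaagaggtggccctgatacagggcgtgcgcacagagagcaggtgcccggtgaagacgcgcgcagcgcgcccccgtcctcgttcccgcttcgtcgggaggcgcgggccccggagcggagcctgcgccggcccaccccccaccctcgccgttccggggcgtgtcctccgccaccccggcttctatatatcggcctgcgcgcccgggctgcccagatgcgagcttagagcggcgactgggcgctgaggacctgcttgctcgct
Igfbp4: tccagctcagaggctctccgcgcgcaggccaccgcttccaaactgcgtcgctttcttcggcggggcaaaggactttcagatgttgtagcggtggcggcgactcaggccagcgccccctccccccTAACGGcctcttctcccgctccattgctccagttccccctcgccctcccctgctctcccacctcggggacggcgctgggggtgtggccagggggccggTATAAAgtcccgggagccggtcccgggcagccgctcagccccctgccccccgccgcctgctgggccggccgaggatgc
The Igfbp4 window holds 1 match to each, TAACGG (the other strand of CCGTTA) from position -126 and TATAAA from position -28, counted from the start site as 0. The Igfbp3 window holds neither of these exact sequences. It does hold the letters tatatat, and variants of the TATA box were not searched for. CCGTTA or TAACGG is found in 2.76% of 32851 promoter windows of the same length, and TATAAA or TTTATA in 13.6%, and the motifs do not overlap in Igfbp4. Of the other members, 1 of 2 windows of Igfbp2 also holds TAACGG, and windows of Igfbp5, Igfbp6, Igfbp7, Igf1 and Igf1r hold no such match. Guanine and cytosine make up 71.7% of the Igfbp3 window and 71.3% of the Igfbp4 window, against a median of 52.7% over all windows. These are descriptions of letters and say nothing about binding.

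**Figure D1:**
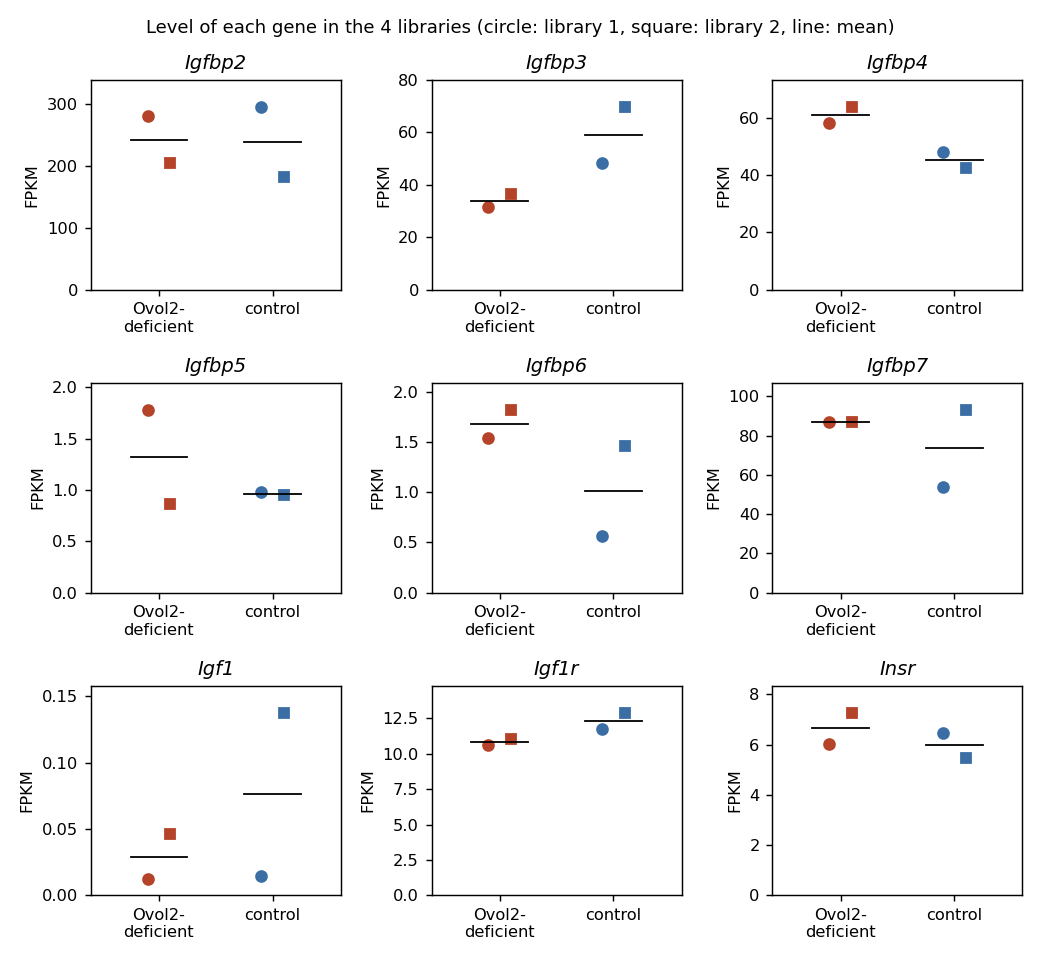
FPKM of each of the 9 IGF genes (vertical axes, each from 0) in the Ovol2-deficient and control groups; circles are library 1, squares library 2 and lines the mean of each group. Igfbp3 and Igf1r lie lower and Igfbp4 and Igfbp6 higher in both Ovol2-deficient libraries than in both controls, while the other 5 genes overlap.

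By level, Igfbp2 led, with a mean of 239.9 FPKM over the 4 libraries, and 97.9% of the tested genes had a lower mean. Igfbp7, Igfbp4 and Igfbp3 followed at means of 80.2, 53.2 and 46.5 FPKM, and their ranges over libraries overlapped one another. The receptors came next, Igf1r at a mean of 11.6 FPKM and Insr at 6.31 FPKM, with no overlap between them. Igfbp6 and Igfbp5, at means of 1.34 and 1.14 FPKM, overlapped. Igf1 was close to absent, at a mean of 0.0527 FPKM.

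Igfbp2 binds both growth factors and carries an integrin-binding motif. It stood at 280.0 and 203.7 FPKM in the Ovol2-deficient libraries, against 294.6 and 181.1 FPKM in the controls. Both Ovol2-deficient values lay between the controls, and the 2 libraries of a group differed more than the groups did, by 1.37-fold in the Ovol2-deficient pair and 1.63-fold in the control pair. The log2 fold change was 0.05 (95% interval -0.51 to 0.61, limma adjusted p = 0.951). The interval leaves room for differences of either sign, so no equality of the groups is shown.

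Igfbp3 carries most IGF in serum, in a complex with the acid-labile subunit Igfals, and in human epidermis it is made in the basal layer. The gene (ENSMUSG00000020427.11) lies on chromosome 11 from 7206086 to 7213923, minus strand (mm10). It stood at 31.5 and 36.5 FPKM in the Ovol2-deficient libraries, against 48.2 and 69.7 FPKM in the controls. Both Ovol2-deficient values lay below both controls, as for 24.0% of all tested genes, and the controls were the more scattered pair. Means were 34.0 ± 3.49 FPKM in Ovol2-deficient and 58.9 ± 15.2 FPKM in control libraries (SD, n = 2 each), which gave a log2 fold change of -0.76 (SE 0.17, 95% interval -1.16 to -0.35). The difference did not pass in limma (adjusted p = 0.0806). The log2 fold change of Igfbp3 was -1.02 without control 1 and -0.50 without control 2. It was -0.65 without Ovol2-deficient library 1 and -0.86 without Ovol2-deficient library 2. In the authors' deposited table Igfbp3 had a log2 fold change of -0.67 with a standard error of 0.14 and an adjusted p of 0.000273. Its neighbour Igfbp1, 3539 bases away on the same chromosome, was listed at 0 in all 4 libraries, and so was not tested.

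Igfbp4 mostly restrains IGF action and is a substrate of the protease Pappa. The gene (ENSMUSG00000017493.12) lies on chromosome 11 from 99041244 to 99054392, plus strand (mm10). It stood at 58.2 and 63.9 FPKM in the Ovol2-deficient libraries, against 48.2 and 42.6 FPKM in the controls. The groups did not overlap, and both Ovol2-deficient values were above both controls, as for 24.1% of all tested genes. Means were 61.0 ± 4.03 FPKM in Ovol2-deficient and 45.4 ± 3.95 FPKM in control libraries (SD, n = 2 each). The log2 fold change was 0.42 (SE 0.10, 95% interval 0.18 to 0.66), and limma did not call it (adjusted p = 0.0985). In the authors' deposited table it was 0.38 with a standard error of 0.12 and an adjusted p of 0.0433. No single library left out made it pass in limma (log2 fold change 0.33 to 0.51).

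Markers of other cell types and states were read in the same libraries. Of 22 markers of fibroblasts or feeder cells, 19 were tested, and 2 passed in limma (Loxl1 and Pcolce), where 1.35% of all genes did. Both Ovol2-deficient values lay above both controls for 18 of the 19, against 24.1% of all tested genes. The summed level of the 22 markers was 887 and 950.2 FPKM in the Ovol2-deficient libraries, against 687 and 643 FPKM in the controls. The ratio of means was 1.38-fold, beside 1.35-fold for Igfbp4 and 1.35-fold for the melanocyte markers. S100a4 was the largest part of that sum, at 345 and 360 FPKM in the Ovol2-deficient libraries, against 267 and 236 FPKM in the controls. Dcn, Lum and Postn were too low to be tested. Among the defining markers, Col1a1 was at 52.0 and 52.5 FPKM in the Ovol2-deficient libraries, against 34.5 and 38.7 FPKM in the controls, while Lum was between 0 and 0.0782 FPKM in all 4 libraries. Igfbp4 equalled 6.56% and 6.73% of the summed marker level in the Ovol2-deficient libraries, against 7.01% and 6.63% in the controls. Igfbp3 was lower, at 3.56% and 3.84% of that sum in the Ovol2-deficient libraries, against 7.02% and 10.8% in the controls. Igfbp7 equalled 9.81% and 9.14% in the Ovol2-deficient libraries, against 7.86% and 14.5% in the controls. For Igfbp2 the values were 31.6% and 21.4% in the Ovol2-deficient libraries, against 42.9% and 28.2% in the controls. All 10 keratinocyte markers had a log2 fold change below 0 (median -0.28), and Igfbp3 equalled 0.489% and 0.655% of their sum in the Ovol2-deficient libraries, against 0.671% and 1.01% in the controls. None of those 10 passed in limma. Of the melanocyte markers, 6 were tested and none passed, with both Ovol2-deficient values above both controls for all 6 and sums of 91.4 and 84.9 FPKM in Ovol2-deficient, against 62.6 and 68.1 FPKM in control libraries. Markers of differentiated keratinocytes summed to 888 and 604 FPKM in the Ovol2-deficient libraries, against 543 and 371 FPKM in the controls, a 1.63-fold ratio of means. Their median log2 fold change was 1.17, that of Krt1, whose groups overlapped, and none of the 5 tested passed in limma. Both Ovol2-deficient values lay above both controls for 3 of the 5, against 24.1% of all tested genes. Sprr1b was the largest part of their sum, at 754 and 531 FPKM in the Ovol2-deficient libraries, against 472 and 346 FPKM in the controls. The part of these cells in the IGF genes was not tested. In bulk RNA, more cells of a type and more RNA per cell cannot be told apart.

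**Figure D2:**
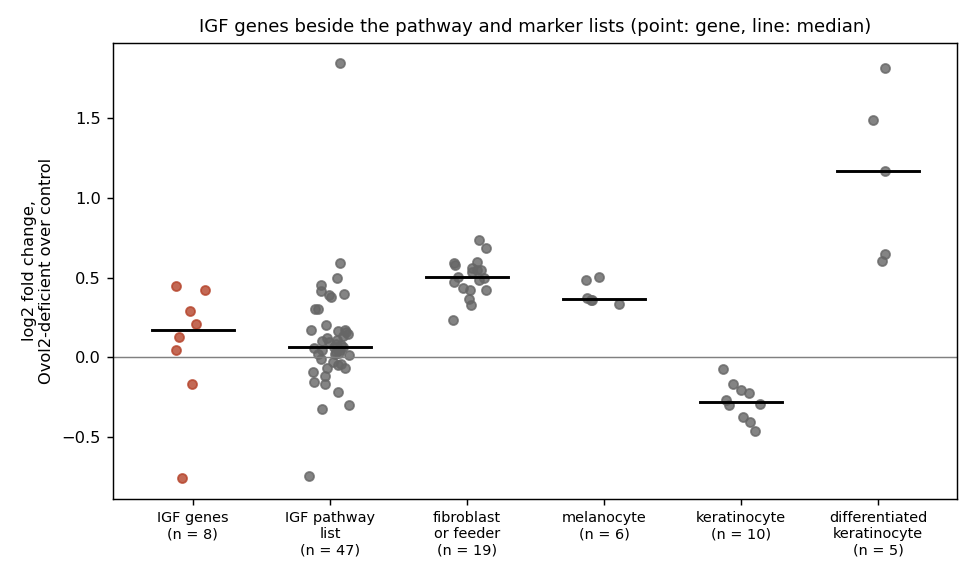
Log2 fold change of Ovol2-deficient over control, on log2(FPKM + 1) (vertical axis), for the 8 tested IGF genes, the IGF pathway list and 4 marker lists; points are genes and lines medians. The IGF genes spread from -0.76 to 0.45 around a median of 0.17, while the fibroblast or feeder markers all lie above 0 with a median of 0.50.

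Igfbp7 binds IGFs only weakly and is found in many stromal and vascular cells. It stood at 87.1 and 86.8 FPKM in the Ovol2-deficient libraries, against 54.0 and 93.1 FPKM in the controls. The Ovol2-deficient pair lay between the controls, and control 1 stood at 0.580 times control 2. The log2 fold change was 0.29 (95% interval -0.23 to 0.81, limma adjusted p = 0.570). Its sign hung on the controls: without control 1 it was -0.10 (adjusted p = 0.749), and without control 2 it was 0.68 and passed (adjusted p = 0.0465). Polr2b and an antisense gene, on the opposite strand, overlap Igfbp7 in the annotation (GENCODE M21), and reads of overlapping genes cannot be told apart without strand.

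Igfbp5, which binds to matrix, and Igfbp6, which prefers Igf2, were both low. Igfbp5 stood at 1.78 and 0.858 FPKM in the Ovol2-deficient libraries, against 0.980 and 0.947 FPKM in the controls. Ovol2-deficient library 1 alone was high and the groups overlapped (log2 fold change 0.21, 95% interval -0.30 to 0.72, limma adjusted p = 0.688). Igfbp6 stood at 1.53 and 1.82 FPKM in the Ovol2-deficient libraries, against 0.562 and 1.46 FPKM in the controls. Its groups did not overlap, but the higher control came close to the lower Ovol2-deficient library (log2 fold change 0.45, 95% interval -0.10 to 0.99, limma adjusted p = 0.386). The log2 fold change of Igfbp6 was 0.12 without control 1 and 0.77 without control 2. Both genes sat just above the minimum mean of 1 FPKM, where the added 1 pulls fold changes toward 0. With 0.1 added instead, Igfbp6 came to 0.80 (adjusted p = 0.394). Igfbp2 and Igfbp5 lie 5457 bases apart on chromosome 1, with Igfbp2 between 157-fold and 300.6-fold higher within a library.

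**Figure D3:**
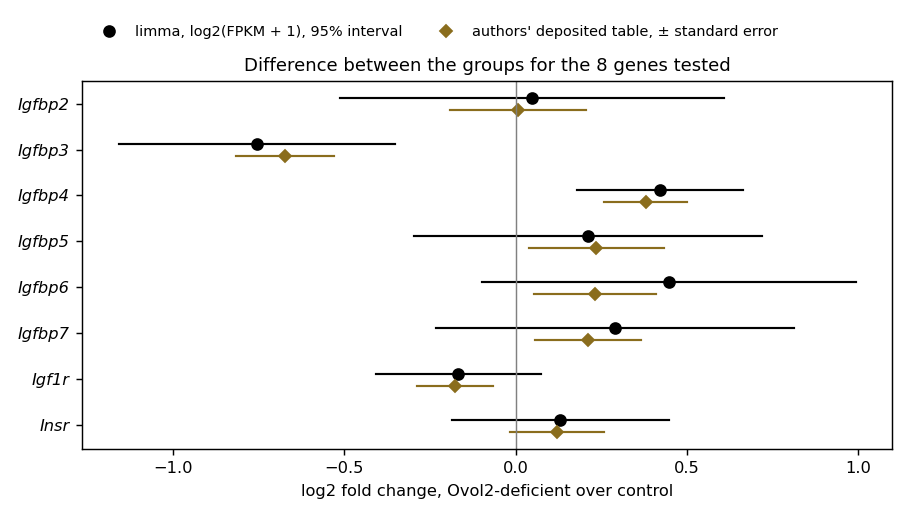
Log2 fold change of Ovol2-deficient over control (horizontal axis) for the 8 tested IGF genes; circles with lines are limma on log2(FPKM + 1) with 95% intervals, and diamonds with lines are the authors' deposited table with 1 standard error to each side. The limma intervals of Igfbp3 (-1.16 to -0.35) and Igfbp4 (0.18 to 0.66) lie to one side of 0 before adjustment over all genes, and the other 6 cross it.

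The summed level of the 6 binding proteins was 460.1 and 393.6 FPKM in the Ovol2-deficient libraries, against 446.5 and 388.8 FPKM in the controls. The groups overlapped, and Igfbp2 made up 60.9% and 51.8% of the sum in the Ovol2-deficient libraries, against 66.0% and 46.6% in the controls. Igfbp3 made up 6.85% and 9.26% in the Ovol2-deficient libraries, against 10.8% and 17.9% in the controls. Its share was lower in both Ovol2-deficient libraries. The ratio of Igfbp3 to Igfbp4 was 0.542 and 0.571 in the Ovol2-deficient libraries, against 1.001 and 1.64 in the controls, so Igfbp4 exceeded Igfbp3 in both Ovol2-deficient libraries, was level with it in control 1 and was lower in control 2. This ratio joins the 2 genes with the clearest differences and was chosen after their values were seen.

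**Figure D4:**
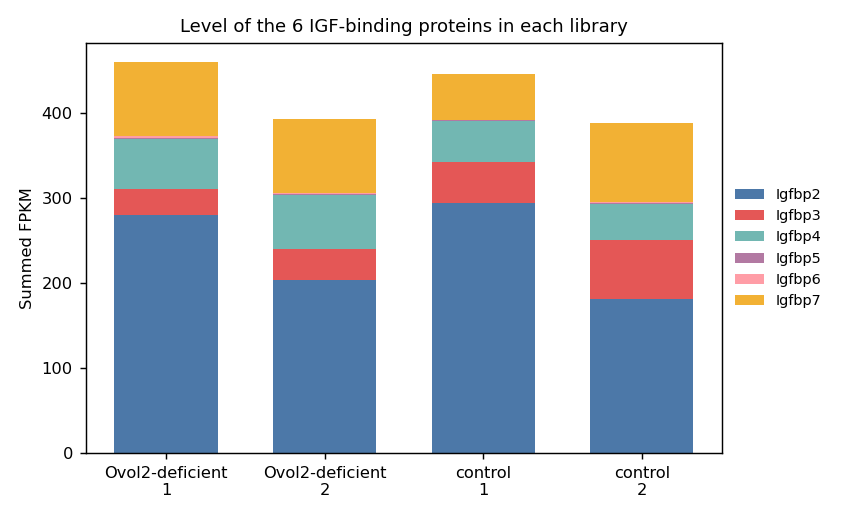
Summed FPKM of the 6 IGF-binding proteins (vertical axis, from 0) in the 2 Ovol2-deficient and 2 control libraries, with a colour for each gene. The sums run from 388.8 to 460.1 FPKM, Igfbp2 is the largest part of each bar, and the Igfbp3 part is smallest in the Ovol2-deficient libraries.

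The ligand Igf1 stood at 0.0124 and 0.0461 FPKM in the Ovol2-deficient libraries, against 0.0147 and 0.137 FPKM in the controls. These values rest on very few reads, and Igf1 was not tested. The receptor Igf1r stood at 10.6 and 11.1 FPKM in the Ovol2-deficient libraries, against 11.7 and 12.9 FPKM in the controls. Its groups did not overlap, but the difference was small, at a log2 fold change of -0.17 (95% interval -0.41 to 0.07, limma adjusted p = 0.464). The authors' deposited table had it at -0.18 (adjusted p = 0.553). Insr stood at 6.03 and 7.27 FPKM in the Ovol2-deficient libraries, against 6.48 and 5.48 FPKM in the controls. The groups overlapped (log2 fold change 0.13, 95% interval -0.19 to 0.45, limma adjusted p = 0.692). Igf1r exceeded Insr in every library, by 1.76-fold and 1.52-fold in the Ovol2-deficient and 1.81-fold and 2.35-fold in the control libraries. In all, 4 of the 8 tested IGF genes had groups that did not overlap, 2 in each direction, against 48.1% of all tested genes.

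**Figure D5:**
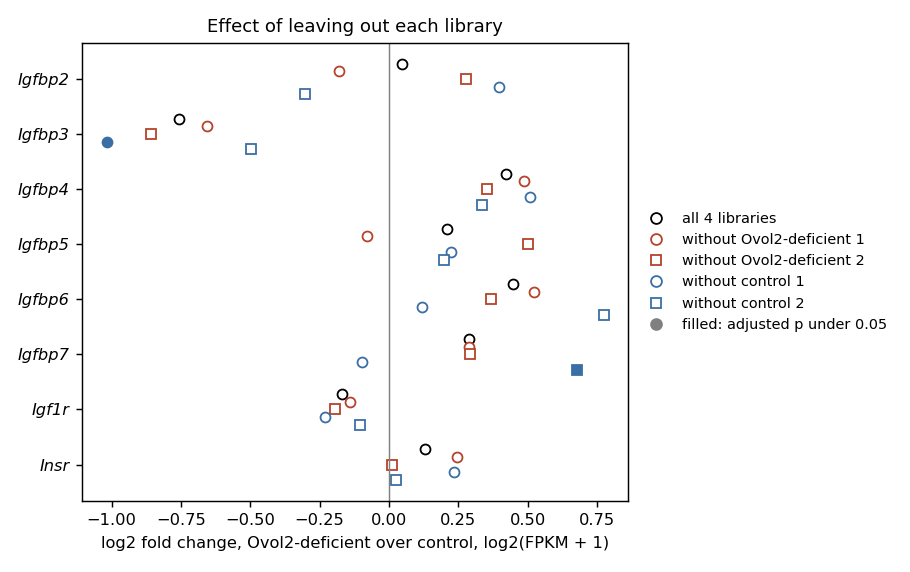
Log2 fold change of Ovol2-deficient over control, on log2(FPKM + 1) (horizontal axis), for the 8 tested IGF genes with all 4 libraries and with each library left out in turn; filled symbols have a limma adjusted p under 0.05. Igfbp3 stays below 0 (-1.02 to -0.50), Igfbp4 stays above it (0.33 to 0.51), and Igfbp2, Igfbp5 and Igfbp7 change sign.

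The rest of the pathway was read from a list of 54 other genes, from ligands and proteases to Akt and mTOR signalling. Of these, 47 were tested, 0 passed in limma, and 11 (23.4%) had an unadjusted p under 0.05, against 17.4% of all tested genes. Both Ovol2-deficient values were above both controls for 17 and below them for 6, where 24.1% and 24.0% of all tested genes were. The median log2 fold change was 0.06, against -0.0014 over all tested genes. In the authors' deposited table, 2 of 48 with an adjusted p had one under 0.05, where 4.43% of all genes did. Those were Grb10, an adaptor that dampens both receptors (higher), and Stc2, an inhibitor of Pappa (lower). Grb10, named after its values were seen, stood at 13.0 and 13.4 FPKM in the Ovol2-deficient libraries, against 7.91 and 9.004 FPKM in the controls, with no overlap. Its log2 fold change was 0.59 (SE 0.11), with an adjusted p of 0.0545 in limma, and of 0.00290 according to the authors' deposited table. Stc2 stood at 2.55 and 2.94 FPKM in the Ovol2-deficient libraries, against 5.86 and 4.71 FPKM in the controls. Both Ovol2-deficient values were below both controls (log2 fold change -0.74, SE 0.14), with an adjusted p of 0.0581 in limma, and of 0.0473 according to the authors' deposited table.

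Among genes that cleave binding proteins, Pappa stood at 1.22 and 1.47 FPKM in the Ovol2-deficient libraries, against 0.771 and 0.731 FPKM in the controls. Its ratio of means was 1.79, and its log2 fold change was 0.42 on log2(FPKM + 1) (limma adjusted p = 0.242). The authors' deposited table had Pappa at 0.55 (adjusted p = 0.0570). The serine protease Htra1 was far more abundant, at 233 and 218 FPKM in the Ovol2-deficient libraries, against 297 and 258 FPKM in the controls (log2 fold change -0.30, limma adjusted p = 0.216). Neither pair of groups overlapped and neither gene passed. Stc1, the relative of Stc2, stayed between 0.142 and 0.242 FPKM and was not tested. Igf2r, which takes up Igf2 for degradation, stood at 31.7 and 32.6 FPKM in the Ovol2-deficient libraries, against 33.8 and 38.1 FPKM in the controls (limma adjusted p = 0.478). The adaptor Irs2 stood at 8.70 and 9.59 FPKM in the Ovol2-deficient libraries, against 5.79 and 7.95 FPKM in the controls (log2 fold change 0.38, limma adjusted p = 0.258). Irs1 overlapped between the groups (log2 fold change -0.17, limma adjusted p = 0.695).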

How the data were processed

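Trizol RNA was turned into amplified full-length cDNA and tagmented with a Nextera kit, per the labels' protocols, which state no strand. TopHat, HTSeq and mm10 are named, without version or role, per the submitters' processing notes. The authors deposited FPKM values for 4 libraries (24487 rows after 1 repeated header line). The authors' second deposited table compares the groups and holds, per the file headers, p-values, raw and adjusted, a score for the test, the log2 fold change, its standard error and a mean normalized signal. Deficient columns are named mutant 1 and 2, so they were matched to the group and keep the table's numbers.

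Symbols turned into dates (27 rows) were dropped and rows sharing a symbol were summed. Genes with a mean of at least 1 FPKM were tested by limma (version 3.58.1, R 4.3.3), after log2(FPKM + 1), in a model of group alone with a variance trend and Benjamini-Hochberg adjustment over 11350 genes. Fold changes on that scale understate changes of low genes. Between any pair of libraries, 5 to 13 tested values were identical, so none was a copy. The fit was tried on simulated data of 11350 genes, with variances from limma's prior and changes made on the log2(FPKM + 1) scale. It recovered 30.7% of genes changed 1.5-fold on that scale, 86.3% at 2-fold and 99.9% at 4-fold, and 4.81% of calls were false. The simulated data follow the model's own assumptions, so that share is not a measure of false calls in these libraries. Depth is not given, so no counting interval was computed.

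All 9 members were named, with fixed pathway genes and any pathway gene that passed. Members, lists and tests were chosen with earlier results of these data known. The design allowed for a count test, but no file held counts. Alternatives were the pseudocount, the filter, quantile and upper-quartile scaling, no variance trend, the replicate number as a block, and each library left out. Promoter windows matched 8 of 9 members (RefSeq, GRCm38.p6). GENCODE M21, of that build, gave the gene coordinates.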

Additional observations from a re-analysis of the deposited data

How the results depend on the processing

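Over all genes, limma called 153, and 171 with a pseudocount of 0.1, but 3 with no filter on low values, 5 under quantile normalization, 36 under upper-quartile scaling, 6 without a variance trend, and 10 to 397 with 1 library left out. The number of IGF genes called was 0 in every fit of all 4 libraries that had no replicate block. In those fits the number of pathway genes called was 0, except for 1 (Grb10) with a pseudocount of 0.1. The log2 fold change of Igfbp3 was -1.02 without control 1, and that of Igfbp7 was 0.68 without control 2. Without control 2, the log2 fold changes of Grb10, Stc2 and Igf2 were 0.67, -0.88 and 2.88. With the table's number as a replicate block, 518 genes were called over all, with 1 IGF gene (Igfbp3, adjusted p = 0.0168) and 2 pathway genes (Grb10 and Stc2). The labels do not say that the numbers mark a shared litter or day. Deviations from the group means correlated at 0.220 between same-numbered libraries across genes, and with 2 pairs this is no more than a hint. Over the alternatives, the adjusted p of Igfbp3 ran from 0.0109 to 0.344 and that of Igfbp4 from 0.0685 to 0.416, and neither changed sign. With 1 library left out, signs changed for Igfbp2 (-0.30 to 0.40, and -0.18 without Ovol2-deficient library 1), Igfbp5 (-0.079 to 0.50) and Igfbp7 (-0.097 to 0.68), and the value of Igfbp6 ran from 0.12 to 0.77. The lowest values were without control 2 for Igfbp2, Ovol2-deficient library 1 for Igfbp5, and control 1 for Igfbp7 and Igfbp6. The cause of these shifts was not tested. Where a group is left with 1 library, that library is assumed to vary like the others. Library depth is not given, so what it limits was not measured.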

Other observations

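Igf2, the other IGF ligand, differed between the deposited tables. It stood at 13.2 and 8.25 FPKM in the Ovol2-deficient libraries, against 0.555 and 5.57 FPKM in the controls, with both Ovol2-deficient values above both controls (log2 fold change 1.84, limma adjusted p = 0.167). Control 1 stood apart. Without control 2, which leaves that low control 1 as the only control, the log2 fold change was 2.88. In the authors' deposited table the log2 fold change was 0.12 (adjusted p = 0.772), with a mean normalized signal of 490.4. In the annotation, Igf2 overlaps a protein-coding gene and a microRNA gene on its own strand and an antisense gene, Igf2os.

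Igfbp2 was higher in library 1 than in library 2 of both groups. Igfbp3 was lower in library 1 than in library 2 of both groups. These orders were noticed after the values were seen and were not tested. The labels do not link same-numbered libraries of the 2 groups.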
